A study of Rattus norvegicus with 8 samples.

Results

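Solute carriers are membrane proteins that move ions, amino acids, metabolites and other small molecules across the plasma membrane or an organelle membrane, and their genes carry symbols that begin with Slc and a family number. The members described here were the probe sets with 1 gene symbol of that form in the array's probe table, leaving out the glucose transporter family Slc2a. They were 172 of the 8799 probe sets on the array and stood for 115 of the 4737 genes that its 1-symbol probe sets name. The 9 Slc2a probe sets were left out by that rule, and all 172 members matched a gene identifier in the RefSeq table of rat assembly GRCr8 without a change of symbol.

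The samples were medial collateral ligaments of rat knees, taken at 3 weeks, with 2 arrays in each of 4 groups. Loaded control rats had sham surgery, and loaded healing rats had the ligament disrupted in both hind limbs; neither was suspended. Unloaded control rats had no sham operation and were held by tail suspension, which lifts the hind limbs off the ground, and unloaded healing rats had the bilateral disruption and were suspended from 24 h after it. Strain, sex and age were not given in the sources used here, nor whether the 2 arrays of a group came from separate animals, so each standard error (SE) and p-value measures only the spread between arrays. Sham surgery and unloading cannot be told apart between the control groups, because the unloaded controls had no sham operation.

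A ligament is a collagen-rich band with few cells, mostly fibroblasts, and with blood vessels, nerves and some immune cells between its fibres. Matrix-producing cells take up amino acids through carriers such as the Slc3a2 and Slc7a5 heterodimer, sulfate for proteoglycans through Slc26a2, and they hand phosphate and adenine nucleotides to mitochondria through the Slc25 family. Bulk tissue was measured, so fewer cells of a type and less RNA per cell cannot be told apart.

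Both arrays of unloaded controls were set apart. Pearson correlations of log2 signal over all tested probe sets ran from 0.492 to 0.608 between them and the remaining arrays, which correlated at 0.761 to 0.872 with each other. Over the transporters alone the ranges were 0.471 to 0.704 and 0.544 to 0.803. Their 99th percentiles of signal, 5494 and 5584, were below those of every other array (9218 to 11289). The tissue's own markers were low there: the summed signal of 10 ligament and tendon fibroblast genes (Col1a1, Dcn, Comp, Thbs4 and others) was 4320 and 3708 in unloaded controls, 113317 and 91804 in loaded controls, 127307 and 108093 in loaded healing and 70483 and 53552 in unloaded healing. Col1a1 alone gave 75949 and 59573 of the loaded control sums and 699 and 763 of the unloaded control sums. Of the 19 probe sets of those genes, 15 were called lower with unloading in controls (6.22 percent of all probe sets). The part of this difference in any transporter result was not tested, and comparisons with the unloaded controls are set beside those between the other groups.

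After an offset of 45.8 was added and log2 taken, probe sets in the lowest 40% by mean over the 8 arrays were set aside, a cut at a signal of about 191. Of the 172 member probe sets 106 (61.6%) lay above it, against 60% of all probe sets by construction, and they stood for 82 genes. A stricter count of member probe sets reading above 191 on every one of the 8 arrays gave 60, or 34.9%, against 32.3% of all non-control probe sets. These are positions relative to a cut and not calls of presence, which the table does not hold. Probe sets differ in how strongly they bind, so a signal here does not rank 1 gene against another.

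Different probe sets for 1 transporter often disagreed about its level. Of 39 genes with more than 1 probe set, 20 had probe sets on both sides of the cut, 13 had all above and 6 had none above, and the median ratio between the brightest and dimmest was 3.75. In 17 of the 39 the lowest array of the brightest probe set read higher than the highest array of the dimmest. Slc14a2, a urea transporter best known from the kidney, read 2663 to 4216 on its brighter probe set and 40.7 to 428.4 on the other. Slc6a4, the serotonin transporter, read 1356 to 2186 and 123.9 to 232.3, and Slc6a2, the noradrenaline transporter, read 577.7 to 1182 and 28.0 to 139.5. Slc8a1, the sodium-calcium exchanger, had 5 probe sets, the brightest at 1286 to 4210 and the dimmest at 34.8 to 199.8. A bright reading for these genes therefore stands for 1 probe set and not for the gene.

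**Figure D1:**
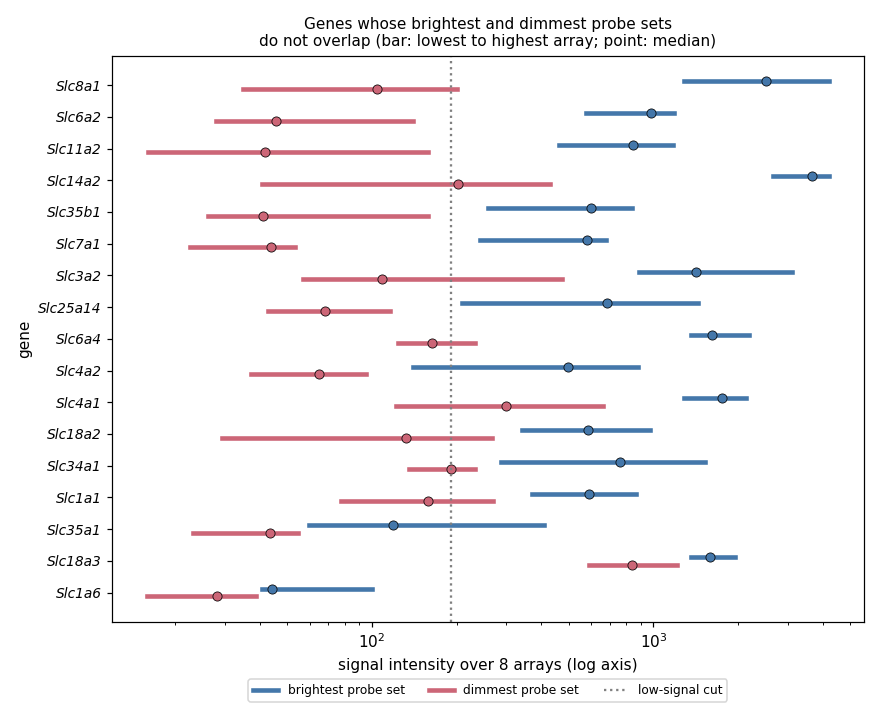
Signal intensity (log axis) of the brightest and the dimmest probe set of each of the 17 transporter genes whose ranges over the 8 arrays do not overlap. Bars run from the lowest to the highest array, points are medians and the dotted line is the low-signal cut at about 191; for Slc8a1, at the top, the median was 2507 on one probe set and 104.25 on the other.

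Few transporters passed the test for a change with injury or loading. In the comparisons made without the unloaded control arrays, limma called 0 of the 106 members at an adjusted p under 0.05: healing against control in loaded rats (percent called among all 5244 probe sets 2.02), unloaded against loaded healing (1.62) and unloaded healing against loaded control (0.0763). At an unadjusted p under 0.05, 9, 6 and 4 members passed in these comparisons, where 11.7%, 10.9% and 5.55% of all probe sets did. In healing against control in unloaded rats 4 members were called (7.46 percent of all probe sets), 2 of them higher (6.41 percent) and 2 lower (1.05 percent). In unloaded against loaded controls 2 were called (6.81 percent), both lower (6.22 percent) and 0 with limma higher (0.591 percent), and 12 members passed an unadjusted p under 0.05, where 17.8% of all probe sets did. In healing against control in unloaded rats 18 members passed it, where 19.1% of all did. These comparisons share the unloaded control arrays. In the interaction, the healing effect in unloaded minus loaded rats, 1 was called (4.84 percent), and in the test of any difference among the 4 groups 2 were called (8.68 percent). The called genes were the mitochondrial carriers Slc25a3 and Slc25a4, the phosphate transporter Slc34a1 and the amino acid transporter chain Slc3a2.

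The precision was limited by 2 arrays a group. The median 95% interval of a member's difference reached 1.12 log2 units, or 2.18-fold, either side of it. In loaded healing against control the interval lay wholly within 1 log2 unit for 18 of 106 members, and in unloaded against loaded healing for 19, so for the remainder a change of that size cannot be set aside. The median log2 difference of the 106 members was -0.11 in loaded healing against control (all probe sets -0.03) and 0.10 in unloaded against loaded healing (0.06). It was -0.34 in unloaded healing against control (-0.23), and 0.36 in unloaded against loaded controls (0.23), with 79 members higher and 27 lower in the last. The members' median changed sign in loaded healing against control (0.25, all probe sets 0.34) and in unloaded against loaded healing (-0.33, all probe sets -0.40) when arrays were scaled to spike-in controls. With median centring 60 members were higher and 46 lower in unloaded against loaded controls, in place of 79 and 27.

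**Figure D2:**
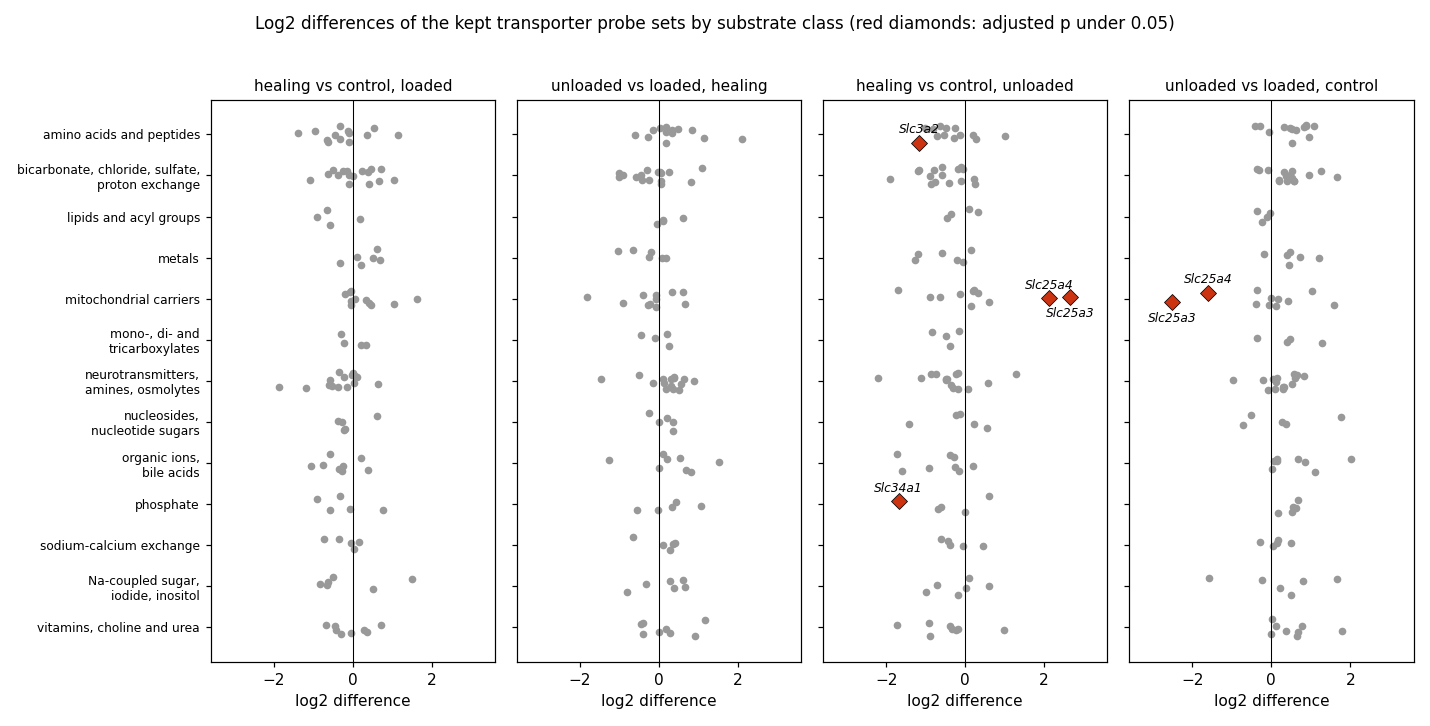
Log2 differences of the 106 kept transporter probe sets, 1 row per substrate class, in 4 comparisons. Grey points did not pass; red diamonds passed at a limma adjusted p under 0.05. No diamond stands in either of the first 2 panels, which compare groups other than the unloaded controls. The mitochondrial carriers Slc25a3 and Slc25a4 stand apart in the last 2.

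Mitochondrial carriers held the only members called in more than 1 comparison. Slc25a3 carries phosphate into the mitochondrial matrix, and Slc25a4 and Slc25a5 are isoforms of the adenine nucleotide translocator, which exchanges ADP for ATP across the inner membrane and of which Slc25a4 is the main isoform of muscle. The 250 bases before the RefSeq start of these 3 genes (assembly GRCr8) are shown. They were chosen because the first 2 were both called in unloaded healing against control and in unloaded against loaded controls, and the third in no comparison. In the interaction only Slc25a4 was called. Capitals mark matches on either strand to the GC box GGGCGG, the CCAAT box CCAAT and the TATA motif TATAA. No match overlaps another.
Slc25a3, chr7:27506628-27506877, minus strand: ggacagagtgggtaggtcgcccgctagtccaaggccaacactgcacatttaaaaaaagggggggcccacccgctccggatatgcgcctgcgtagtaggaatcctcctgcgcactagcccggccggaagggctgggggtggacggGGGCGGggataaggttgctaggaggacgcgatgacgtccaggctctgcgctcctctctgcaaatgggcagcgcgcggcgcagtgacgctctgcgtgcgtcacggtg
Slc25a4, chr16:52805271-52805520, plus strand: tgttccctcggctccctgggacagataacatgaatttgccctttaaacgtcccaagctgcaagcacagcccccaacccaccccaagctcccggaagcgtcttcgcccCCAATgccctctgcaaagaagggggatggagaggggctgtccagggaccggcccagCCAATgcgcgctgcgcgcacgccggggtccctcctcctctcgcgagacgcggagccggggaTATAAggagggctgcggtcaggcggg
Slc25a5, chrX:120897366-120897615, plus strand: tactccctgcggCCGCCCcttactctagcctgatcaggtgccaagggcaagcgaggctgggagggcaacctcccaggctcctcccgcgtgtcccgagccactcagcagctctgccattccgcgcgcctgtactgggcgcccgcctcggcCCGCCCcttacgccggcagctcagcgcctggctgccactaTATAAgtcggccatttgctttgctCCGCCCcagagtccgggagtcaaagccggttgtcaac

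The 3 windows differed in these letters. Slc25a3 had 1 GC box, Slc25a4 had 2 CCAAT boxes and 1 TATA motif, and Slc25a5 had 3 GC boxes and 1 TATA motif. Among 33469 RefSeq windows of the same length, 30.5% held a GC box, 34% a CCAAT box and 24% a TATA motif. Windows matched 98 of the 115 transporter genes (109 windows, since some genes have several starts), and of these 46.8% held a GC box, 34.9% a CCAAT box and 17.4% a TATA motif. The median GC content was 58.4% in the transporter windows and 51.2% in all. A match is a description of letters and not a binding site.

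Slc25a3 was low on the unloaded control arrays and level elsewhere. Its probe set rc_AA892776_at read 1047.2 and 963.1 in loaded controls, 1554.9 and 1180.9 in loaded healing, 60.3 and 271.3 in unloaded controls and 1049.1 and 1194.5 in unloaded healing. Both unloaded control arrays lay below every other array, and 1 of them lay under the low-signal cut. The transcript was 5.73-fold lower in unloaded than in loaded controls (log2 -2.52 ± 0.48 SE, limma adjusted p = 0.00859) and 6.35-fold higher in unloaded healing than in unloaded controls (2.67 ± 0.48, adjusted p = 0.00562). Against loaded controls, the difference was 0.42 ± 0.48 in loaded healing and 0.15 ± 0.48 in unloaded healing, and neither passed. The size rested on which unloaded control array was used: without unloaded control 1 the differences were -1.73 and 1.88, and without unloaded control 2 they were -3.31 and 3.46, all passing. The interaction was 2.25 ± 0.68 and did not pass (adjusted p = 0.133), with 1.46 without unloaded control 1. The fall in unloaded controls did not pass without loaded control 1 (adjusted p = 0.0650), without loaded control 2 or in a fit of the control groups alone (0.0689), and the interaction passed without unloaded control 2 (3.04, adjusted p = 0.00750).

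Slc25a4 was also lowest in unloaded controls. Its probe set D12770_s_at read 1288.1 and 1329.0 in loaded controls, 1172.2 and 1305.6 in loaded healing, 294.6 and 533.6 in unloaded controls and 1804.0 and 2000.5 in unloaded healing. The unloaded controls were again below all other arrays, and the unloaded healing arrays were above all others. It was 3.05-fold lower in unloaded than in loaded controls (log2 -1.61 ± 0.31, limma adjusted p = 0.00939) and 4.38-fold higher in unloaded healing than in unloaded controls (2.13 ± 0.31, adjusted p = 0.00129). The interaction passed, at 2.21 ± 0.44 (adjusted p = 0.0144). In loaded rats healing differed from control by -0.08 (95% interval -0.78 to 0.62), and unloaded healing lay 0.60 above loaded healing (-0.10 to 1.30, adjusted p = 0.558).

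The rise of Slc25a3 and Slc25a4 in unloaded healing over unloaded control kept its call under all 20 alternatives run for it, with adjusted p up to 0.0455 and 0.0158. The fall of Slc25a4 in unloaded controls did not pass without loaded control 1 (adjusted p = 0.0572), loaded control 2 (0.0623) or unloaded control 1 (0.0573), or in a fit of the control groups alone (0.0657). Its interaction did not pass without loaded control 1 (0.0510), loaded control 2 (0.0564), loaded healing 1 (0.0694), loaded healing 2 (0.0516) or unloaded healing 2 (0.0608), nor with a variance prior without intensity trend (0.0590) or with spike-in scaling (1.63, adjusted p = 0.156).

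Some other bright probe sets were also called lower on the unloaded controls. Of 881 probe sets at least as bright on the 4 healing arrays as that of Slc25a3, 27.9% were called lower with unloading in controls, against 1.83% of the 4363 dimmer ones. The 12 transporter probe sets in the brighter set belonged to Slc4a1, Slc5a1, Slc6a4, Slc6a11, Slc8a1, Slc14a1, Slc14a2, Slc18a3, Slc25a3, Slc25a4, Slc28a1 and Slc29a2. Of these 2 were called lower, Slc25a3 and Slc25a4, and 6 of the 12 read higher in unloaded than in loaded controls. Skeletal muscle markers were mixed. Their summed signal over 13 genes was 5930 and 6472 in unloaded controls and 11203 to 20574 on the other arrays, with 2 of 11 kept probe sets called lower in them than in loaded controls, Acta1 and Myh4 (6.22 percent of all probe sets), and 4 called higher in unloaded healing than in unloaded controls (6.41 percent). Myh7, Myl1 and Tnnt3 read 0.38, 0.25 and 0.16 in unloaded against loaded controls. The summed signal of 3 erythroid genes was 1668 and 3128 in unloaded controls and 2030 to 7495 elsewhere, with 1 of 3 called lower and 2 of 3 called higher in the same comparisons. No muscle or erythroid marker read 0 on any array, but this does not show presence, and 1 Myh7 probe set read 10.3 in loaded control 1. The part of these markers in the Slc25a3 and Slc25a4 differences was not tested.

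**Figure D3:**
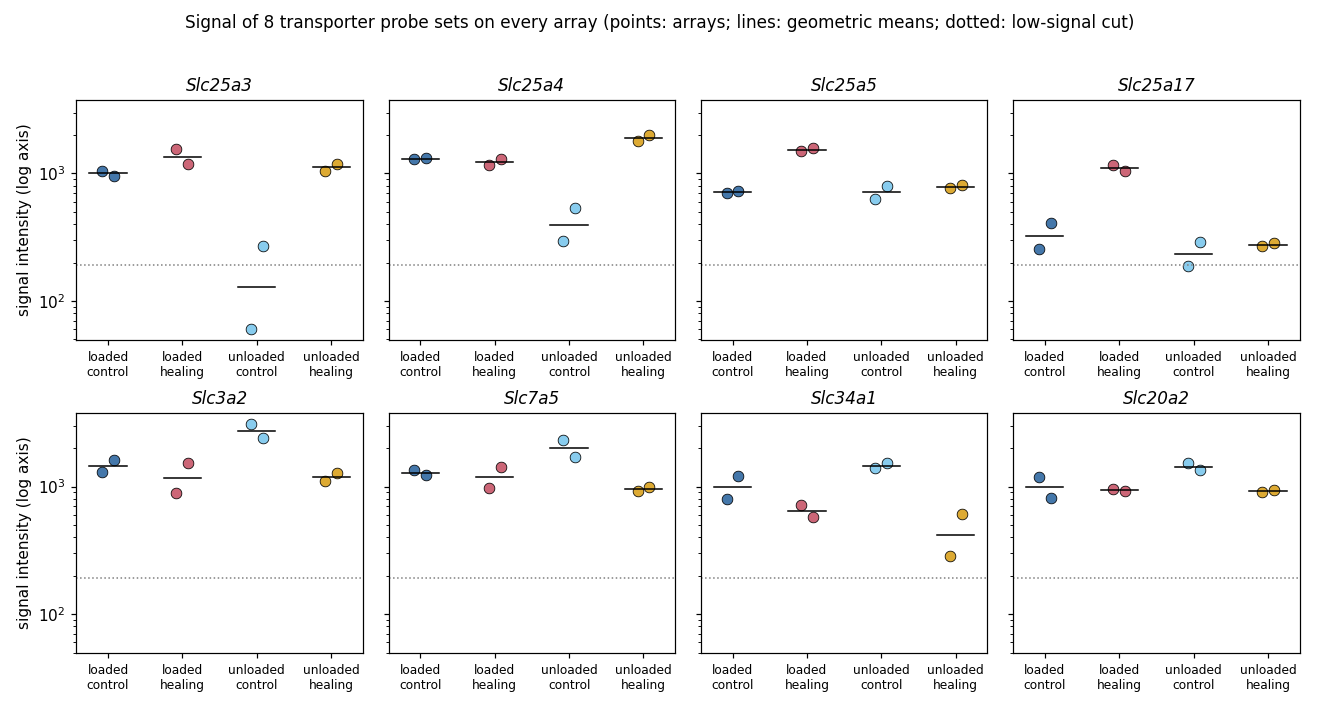
Signal intensity (log axis) of 8 transporter probe sets on every array, by group. Points are arrays, lines are geometric means of the 2 arrays and the dotted line is the low-signal cut; Slc25a3 and Slc25a4 are lowest on both unloaded control arrays, while Slc3a2, Slc7a5 and Slc34a1 are highest there.

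Slc25a5 and Slc25a17 showed another pattern that did not pass the test as processed here. They were chosen after their values were seen, as the members with the smallest p in loaded healing against control. Slc25a5, the adenine nucleotide translocator isoform of dividing and non-muscle cells, read 706.8 and 734.8 in loaded controls, 1502.8 and 1573.1 in loaded healing, 626.6 and 804.4 in unloaded controls and 765.3 and 814.7 in unloaded healing. Both loaded healing arrays lay above the other 6. The difference was 1.05 ± 0.29 log2 in loaded healing against control (limma adjusted p = 0.136) and -0.92 ± 0.29 in unloaded against loaded healing (adjusted p = 0.213). Slc25a17, a carrier of peroxisomes, read 256.2 and 407.4, 1156.7 and 1041.7, 188.6 and 290.9, and 270.5 and 284.2 in the same order of groups. Its differences were 1.63 ± 0.45 (adjusted p = 0.135) and -1.82 ± 0.45 (adjusted p = 0.0982), and its test among the 4 groups gave an adjusted p of 0.0502. The test among groups passed for Slc25a17 with quantile normalization, median centring, spike-in scaling or a larger offset. It also passed with a stricter filter, a prior without trend or probe sets averaged by gene. It did not pass with no filter, a floor, a robust prior or a replicate block. With spike-in scaling its difference in unloaded against loaded healing passed (-2.28, adjusted p = 0.0367). These comparisons share the loaded healing arrays. Some macrophage and myeloid markers were high on the same arrays. The summed signal of 12 genes was 41316 and 35620 in loaded healing and 7817 to 12547 on the other arrays, and 5 of 15 kept probe sets were called higher in loaded healing than in loaded controls (1.03 percent of all probe sets) and 5 lower in unloaded than in loaded healing (0.858 percent). Lyz2 alone gave 16260 and 13978 of the loaded healing sums, and the other 10 probe sets did not pass, among them those of Cd14 at -0.09 and -0.24 in loaded healing against control. The part of those cells was not tested.

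The remaining mitochondrial carriers gave no call. Slc25a11, the oxoglutarate carrier, read 767.0 and 1072.4 in loaded controls, 922.5 and 670.4 in loaded healing, 2193.1 and 1633.5 in unloaded controls and 1104.8 and 893.4 in unloaded healing. It was thus highest on the unloaded controls, opposite to Slc25a3 (log2 1.02 ± 0.31, limma adjusted p = 0.101, and 0.0462 with quantile normalization), while its second probe set differed by -0.06. Slc25a10, the dicarboxylate carrier, read 381.0 to 1757 on its brightest probe set, with both extremes in unloaded healing. Its dimmest probe set read 68.2 to 535.8. Of 16 mitochondrial carrier probe sets for 12 genes, 11 for 9 genes were kept, and the genes without a kept probe set were Slc25a20, Slc25a23 and Slc25a30.

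Among amino acid and peptide carriers 1 member was called. Slc3a2, the heavy chain that brings several Slc7 light chains to the cell surface, read 1310.7 and 1628.2 in loaded controls, 886.0 and 1529.7 in loaded healing, 3094.8 and 2390.3 in unloaded controls and 1097.7 and 1274.7 in unloaded healing on its probe set AB015433_s_at. Both unloaded control arrays were above all others. It was 2.25-fold lower in unloaded healing than in unloaded controls (log2 -1.17 ± 0.30, limma adjusted p = 0.0458), and its difference between the control groups, 0.88 ± 0.30, did not pass, although it did with quantile normalization (1.34, adjusted p = 0.0251). The call ended without any 1 of loaded control 1 (adjusted p = 0.0605), loaded control 2 (0.0633), unloaded control 1 (0.268), unloaded control 2 (0.0973), unloaded healing 1 (0.164) and unloaded healing 2 (0.104), and with median centring (0.0971), no filter (0.0843) or a prior without trend (0.138). Its other probe set, below the cut, read 57.0 to 474.7.

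Slc7a5, the light chain that pairs with Slc3a2, was also highest in unloaded controls. It read 1344.6 and 1228.6 in loaded controls, 978.6 and 1434.6 in loaded healing, 2314.8 and 1721.8 in unloaded controls and 932.2 and 997.5 in unloaded healing. The difference between unloaded healing and unloaded control was -1.02 ± 0.28 log2 and did not pass (limma adjusted p = 0.0618). It passed with quantile normalization (adjusted p = 0.0268) and with a stricter filter (0.0471). In loaded rats healing differed from control by -0.31 for Slc3a2 (95% interval -0.99 to 0.36) and -0.11 for Slc7a5 (-0.74 to 0.52).

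The glutamate carriers gave no call. Slc1a2, a glutamate transporter known from glia, read 1227.5 and 982.6 in loaded controls, 224.6 and 1246.9 in loaded healing, 1651.0 and 1551.8 in unloaded controls and 812.3 and 1272.9 in unloaded healing. The loaded healing arrays thus differed more from each other than the groups did, and the other 3 probe sets of Slc1a2 read 73.7 to 609.1. Slc1a3, a second glial glutamate transporter, named here after its values were seen, read 164.4 and 405.8, 67.7 and 78.1, 166.1 and 258.6, and 405.7 and 533.0 in the same order. It lay 2.11 ± 0.58 log2 above loaded healing in unloaded healing and did not pass (limma adjusted p = 0.140), and its second kept probe set read 0.32. Of 26 probe sets for 13 genes, 13 for 11 genes were kept, 0 rose and 1 fell in unloaded healing against control (Slc3a2), and Slc1a6 and Slc7a2 had no kept probe set.

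Of the phosphate transporters, Slc34a1 was called on 1 of its 5 probe sets. Slc34a1 is the sodium-phosphate cotransporter of the kidney's proximal tubule, and Slc20a2 is a widely expressed one. The probe set AB013455_g_at of Slc34a1 read 803.1 and 1209.9 in loaded controls, 713.8 and 574.3 in loaded healing, 1400.5 and 1521.0 in unloaded controls and 286.4 and 611.7 in unloaded healing. All 4 healing arrays lay below all 4 control arrays, and in loaded rats the difference did not pass (log2 -0.59 ± 0.40, limma adjusted p = 0.667). It was 3.22-fold lower in unloaded healing than in unloaded controls (log2 -1.69 ± 0.40, limma adjusted p = 0.0274). The other kept probe sets of Slc34a1 differed by 0.01, -0.69 and 0.59 in that comparison, and the average over its kept probe sets was -0.44 (adjusted p = 0.607). The call also ended with no filter (adjusted p = 0.0513), a prior without trend (0.0620), a fit of the unloaded groups alone (0.0598), or without unloaded control 1 (adjusted p = 0.126), unloaded control 2 (0.166) or unloaded healing 1 (0.132). Slc20a2 read 819.3 to 1526 over the 8 arrays, with -0.61 ± 0.29 in the same comparison (limma adjusted p = 0.281).

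The other classes held 0 members called in any of the comparisons with limma, and their brightest probe sets describe what signal the tissue gave. For each class the members with the smallest p in the test among groups are given as values.

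**Figure D4:**
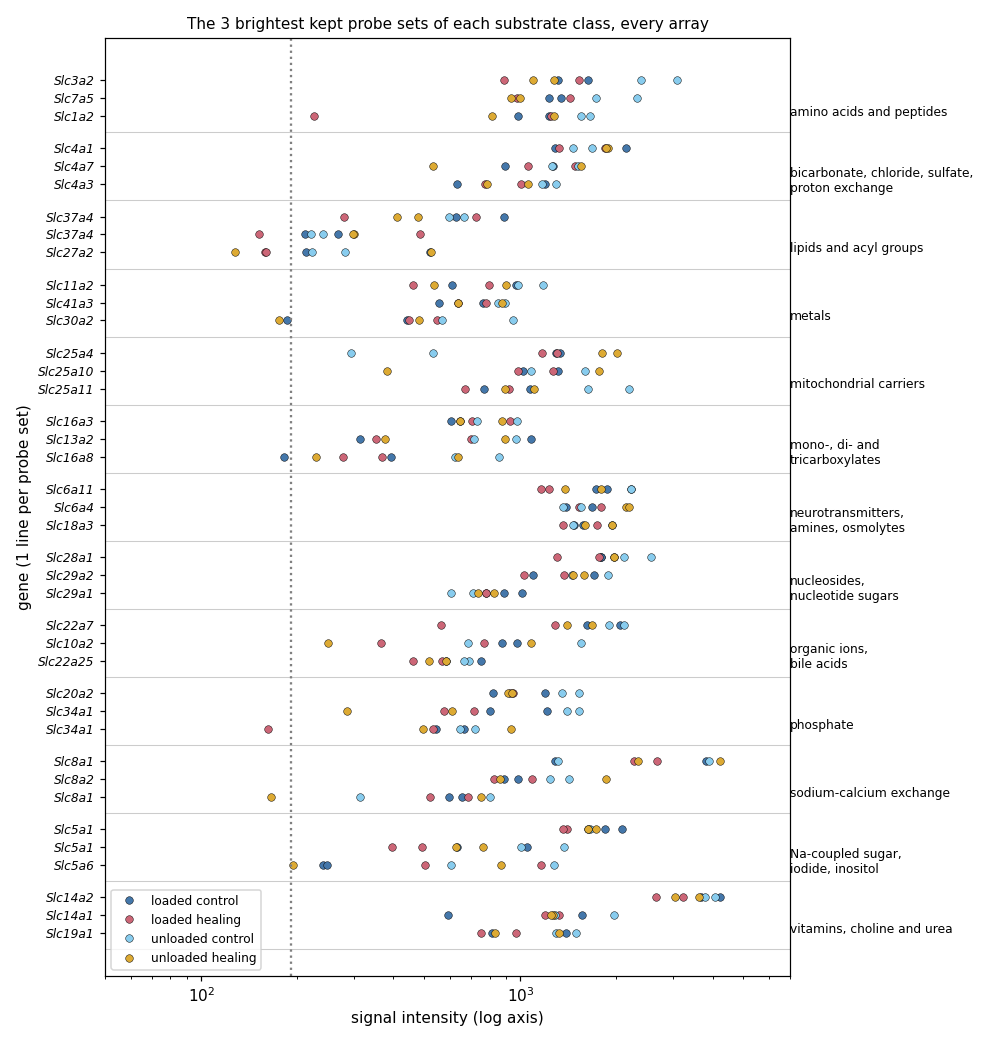
Signal intensity (log axis) of the 3 brightest kept probe sets in each of the 13 substrate classes, with 1 row per probe set and 1 point per array, coloured by group, and the low-signal cut dotted. Rows are not to be ranked against each other, since probe sets differ in binding; in the row of Slc25a4 the unloaded controls, at 294.6 and 533.6, lie apart from the rest.

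Carriers of bicarbonate, chloride, sulfate and protons had 16 of 24 probe sets kept, for 11 of 16 genes. Slc4a1, the anion exchanger of red blood cells, read 1287 to 2139 on its brightest probe set and differed by -0.09 log2 in loaded healing against control and 0.25 in unloaded healing against control. Its 2 further probe sets read 442.1 to 771.8 and 121.7 to 660.8. Slc4a7, a sodium-bicarbonate cotransporter, read 531.2 to 1549, with the lowest and the highest value both in unloaded healing. Slc4a3, another anion exchanger, read 634.6 to 1293. The sulfate transporter Slc26a2, which supplies sulfate for proteoglycans and is named here for that role, read 635.8 and 934.9 in loaded controls, 561.9 and 856.9 in loaded healing, 1088.1 and 991.4 in unloaded controls and 520.3 and 582.3 in unloaded healing. Its largest difference was -0.86 in unloaded healing against control (limma adjusted p = 0.215).

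Among the cation-chloride cotransporters of that class, Slc12a2 imports chloride with sodium and potassium and Slc12a4 exports it with potassium. The Slc12a2 probe set AF051561_s_at read 95.9 and 275.7 in loaded controls, 241.2 and 348.4 in loaded healing, 572.1 and 690.6 in unloaded controls and 111.5 and 160.9 in unloaded healing. It was highest on the unloaded controls, and neither the difference from unloaded healing (-1.90 ± 0.56, limma adjusted p = 0.0787) nor the interaction (-2.56 ± 0.80, adjusted p = 0.147) passed. Its other kept probe sets read -0.06 and -1.19 in unloaded healing against control. Slc12a4 read 177.1 to 728.3 on the probe set with the smaller p and 339.6 to 872.3 on the other, with -1.16 and -0.78 in that comparison. The genes without a kept probe set were Slc4a4, Slc9a2, Slc9a3, Slc12a1 and Slc12a5, the last of which is the neuronal chloride exporter.

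Transporters of neurotransmitters, amines and osmolytes held both steady and unsteady signals. Of 28 probe sets for 20 genes, 15 for 12 genes were kept. Slc18a3, the vesicular acetylcholine transporter, read 1361 to 1943 on its brighter probe set, a ratio of 1.43 between the highest and lowest array. That was the smallest ratio among the 106 members, whose median was 3.75 (all kept probe sets 3.93). The second kept Slc18a3 probe set read 591.1 to 1208, and Slc6a15 had a ratio of 21.07. A ratio under 2 was found for 15.1% of kept members and 14.7% of all kept probe sets. Slc6a4 read 1679.6 and 1390.5 in loaded controls, 1793.7 and 1528.7 in loaded healing, 1356.4 and 1544.9 in unloaded controls and 2145.6 and 2185.8 in unloaded healing on its brighter probe set, and its largest difference was 0.57. Slc6a11, a GABA transporter, read 1871.4 and 1723.7, 1158.4 and 1229.4, 2227.2 and 2225.1, and 1381.7 and 1793.9 in the same order, lower in both healing groups than in their controls by 0.57 and 0.49 log2, without passing (limma adjusted p = 0.355 and 0.292). Slc6a15, a neutral amino acid transporter of neurons, read 286.7 to 627.9 in the control groups, 259.5 and 408.5 in loaded healing and 198.1 and 29.8 in unloaded healing. Its difference in unloaded healing against control was -2.21 ± 0.64 (adjusted p = 0.0706), and it passed without unloaded healing 1 (adjusted p = 0.0190) and with spike-in scaling (0.0317). The creatine transporter Slc6a8, which supplies muscle and is named after its values were seen, read 158.8 and 527.0 in unloaded controls and 575.5 to 951.0 elsewhere. Its difference in unloaded healing against control was 1.30 ± 0.50 and did not pass (limma adjusted p = 0.187), although it did without unloaded control 2 (2.04, adjusted p = 0.0440). The taurine transporter Slc6a6 and the vesicular glutamate transporter Slc17a7 had no kept probe set, the second at 27.2 to 93.0.

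The summed signal of nerve and Schwann cell markers over 9 genes was 12269 and 13503 in loaded controls and 10990 and 8531 in loaded healing. It was 14695 and 11584 in unloaded controls and 11104 and 11616 in unloaded healing. Of 10 kept probe sets 0 passed with limma in loaded healing against control (2.02 percent of all probe sets). In unloaded healing against control 1 was lower (1.05 percent). Their part in the signals of neuronal transporters was not tested.

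Carriers of monocarboxylates and of di- and tricarboxylates had the smallest share of kept probe sets, 4 of 10 (40%). Slc16a3, the lactate exporter of glycolytic cells, read 646.8 and 605.7 in loaded controls, 703.9 and 928.2 in loaded healing, 974.6 and 729.5 in unloaded controls and 872.2 and 644.8 in unloaded healing, with no difference over 0.51 log2 in any comparison. Slc16a1, the widely expressed monocarboxylate transporter, had 2 probe sets, both below the cut, at 73.0 to 235.4 and 47.5 to 327.1. Slc16a8 read 181.3 to 855.2, with 1.30 in unloaded against loaded controls, and the renal dicarboxylate transporter Slc13a2 read 314.2 to 1078, both without passing.

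Metal transporters had 6 of 10 probe sets kept. Slc11a2, which imports ferrous iron, read 971.6 and 610.2 in loaded controls, 794.4 and 461.8 in loaded healing, 1173.2 and 985.8 in unloaded controls and 903.2 and 534.7 in unloaded healing on 1 probe set, while its 2 others read 16.0 to 234.7 and lay below the cut. Slc41a3, of the magnesium transporter family, read 553.6 to 896.5, a ratio of 1.62. Slc40a1, the iron exporter ferroportin of macrophages, read 93.9 to 424.2 and 45.6 to 436.9 on its 2 probe sets and differed by 0.62 and 0.50 log2 in loaded healing against control, without passing. The zinc transporter Slc30a2 read 175.4 to 944.7, with -1.19 in unloaded healing against control, which did not pass, and Slc30a1 had no kept probe set, at 27.6 to 196.9.

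Nucleoside and nucleotide sugar carriers had 5 of 9 probe sets kept, and all 5 read above 191 on every array. Slc28a1 and Slc28a2 concentrate nucleosides with sodium, and Slc29a1 and Slc29a2 equilibrate them. Slc28a1 read 1301 to 2567, Slc29a2 read 1024 to 1885 and Slc29a1 read 604.8 to 1015, and none differed by more than 0.51 log2. Slc28a2 read 274.7 and 239.7 in loaded controls, 520.0 and 328.5 in loaded healing, 933.6 and 1050.3 in unloaded controls and 229.0 and 493.3 in unloaded healing. It lay 1.78 ± 0.47 log2 higher in unloaded than in loaded controls and did not pass (limma adjusted p = 0.0551). It passed under several of the alternatives, including quantile normalization (0.0484), a larger offset (0.0414), a stricter filter (0.0415) and averaging probe sets by gene.

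Sodium-calcium exchangers had 5 of 9 probe sets kept. Slc8a1 on its brightest probe set read 3825.3 and 1286.1 in loaded controls, 2276.0 and 2670.5 in loaded healing, 1314.9 and 3910.1 in unloaded controls and 4210.1 and 2344.3 in unloaded healing, so arrays of 1 group differed by more than the groups. Its 2 further kept probe sets read 165.1 to 801.0 and 137.7 to 647.0. Slc8a2 read 827.5 to 1856, and Slc24a2, a potassium-dependent exchanger of neurons, had no kept probe set.

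Sodium-coupled carriers of sugar, iodide, inositol and vitamins had 6 of 7 probe sets kept. Slc5a1, the sodium-glucose cotransporter of the intestine, read 1356 to 2077 on 1 probe set and 395.4 to 1367 on the other, with -0.50 and -0.83 log2 in loaded healing against control, both without passing (limma adjusted p = 0.422 and 0.415). Slc5a6, the multivitamin transporter, read 239.8 and 248.2 in loaded controls, 502.0 and 1162.5 in loaded healing, 605.4 and 1269.7 in unloaded controls and 193.8 and 866.4 in unloaded healing on its brighter probe set. Slc5a5, the iodide transporter of the thyroid, read 919.0 and 565.5, 337.1 and 568.8, 175.5 and 250.9, and 256.4 and 447.8 in the same order. Its difference between the control groups was -1.58 ± 0.50 log2 and did not pass (adjusted p = 0.109), although it did with quantile normalization (0.0425).

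Organic ion and bile acid carriers had 8 of 13 probe sets kept. The organic anion transporter Slc22a7 read 2047.1 and 1618.5 in loaded controls, 565.1 and 1284.8 in loaded healing, 2111.6 and 1890.5 in unloaded controls and 1671.2 and 1402.7 in unloaded healing. The loaded healing arrays were the lowest of the 8 (log2 -1.05 ± 0.35 against loaded control, limma adjusted p = 0.226), but its second probe set, at 113.5 to 1061, read 0.20. That second probe set was highest on the unloaded controls, at 1061.2 and 764.5, with 2.01 ± 0.62 between the control groups (adjusted p = 0.102). The bile acid transporter Slc10a2 read 249.7 to 1549 on its kept probe set and 11.2 to 316 on the other, which was not kept. Slc22a25 read 461.2 to 749.6.

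Vitamin, choline and urea carriers had 8 of 9 probe sets kept, the largest share of any class at 88.9%. Slc14a2 was steady on its brighter probe set, at 4215.9 and 3671.5 in loaded controls, 2663.4 and 3225.9 in loaded healing, 3785.4 and 4057.8 in unloaded controls and 3633.5 and 3048.9 in unloaded healing. No difference passed, and with quantile normalization it was called lower in unloaded healing than in unloaded controls (-0.96, limma adjusted p = 0.00613) and higher in unloaded than in loaded controls (0.77, 0.0226). Slc14a1, the urea transporter of red cells, read 594.4 to 1961 and 107.6 to 685.2 on its 2 probe sets. Slc19a1, the reduced folate carrier, read 752.1 to 1491 on 1 and 447.3 to 1129 on the other. Slc52a3, a riboflavin transporter, read 179.8 and 93.0 in loaded controls, 194.5 and 303.5 in loaded healing, 519.8 and 618.3 in unloaded controls and 403.9 and 609.0 in unloaded healing. All 4 unloaded arrays lay above all 4 loaded arrays, and neither unloading comparison passed (1.79 ± 0.51 in controls, adjusted p = 0.0738, or 0.0421 with a prior without trend, and 0.91 ± 0.51 in healing, adjusted p = 0.586).

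The class named for lipid and acyl group carriers had 4 of 5 probe sets kept. It was set by family number and took in the Slc37 family, whose Slc37a4 carries a sugar phosphate and not a lipid. Slc27a1 and Slc27a2, which take up fatty acids, read 138.1 to 336.8 and 127.2 to 522.9. Slc37a4, the glucose-6-phosphate translocase of the endoplasmic reticulum, read 280.8 to 886.8 and 152.0 to 483.9 on its 2 probe sets. The largest difference in this class in loaded healing against control was -0.90, for Slc27a2, and it did not pass.

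Ion pumps and transporter partners, which set up the gradients that many carriers use, were called about as often as all probe sets (2.02, 1.62, 7.46 and 6.81 percent in the comparisons that follow). Of 35 kept probe sets for 23 of the listed genes, 1 rose and 0 fell in loaded healing against control, 0 passed with limma in unloaded against loaded healing (adjusted over all probe sets), 2 rose and 1 fell in unloaded healing against control, and 2 fell in unloaded against loaded controls. Atp6v0c, a proton pore subunit of the vacuolar ATPase, read 1175.2 and 1125.0 in loaded controls, 4037.0 and 2560.9 in loaded healing, 329.2 and 333.9 in unloaded controls and 1844.2 and 1365.9 in unloaded healing. It was higher than in the matching controls by 1.45 ± 0.30 log2 in loaded healing (limma adjusted p = 0.0449) and by 2.11 ± 0.30 in unloaded healing (0.000991). It was lower in unloaded than in loaded controls (-1.66 ± 0.30, 0.00587). A second kept probe set of Atp6v0c, at 675.2 to 1505, read -0.21, -0.10 and 0.43 in these comparisons. Fxyd2, a regulator of the sodium pump, was lower in unloaded than in loaded controls (-2.22 ± 0.52, 0.0306) and higher in unloaded healing than in unloaded control (2.16 ± 0.52, 0.0328). Atp2b4, a plasma membrane calcium pump, fell on 1 of 2 kept probe sets in unloaded healing against control (-2.07 ± 0.51, 0.0371), and the other read -0.88 without passing.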

How the data were processed

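What the authors deposited is, per array, a linear intensity for each of 8799 probe sets on a single-colour oligonucleotide array. They had scaled the arrays, since the 2% trimmed mean was 500.3 to 500.6 on each. The sources used here name no summarising software and hold no presence calls. The 59 control probe sets were set aside, 45.8 (the 10th percentile) was added, log2 was taken, and the lowest 40% by mean were removed, leaving 5244. Fold changes include the offset, which shrinks those of dim probe sets.

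limma 3.58.1 (R 4.3.3) fitted a mean for every group, with intensity-trended variances and 4 residual and 5.81 prior degrees of freedom. Tests were two-sided, with Benjamini-Hochberg adjustment over all 5244 probe sets within a comparison and a threshold of 0.05. Symbols came from the platform's probe table: 7018 probe sets had 1 symbol, 308 several and 1473 none.

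Members, substrate classes (by family number) and other lists were chosen with earlier results of these data known. Named were all called members, the 3 brightest kept probe sets of each class and, in a class without a call, the 2 with the smallest p among groups; others were chosen for a role or after their values were seen. Of lists not given in the report, 1 of 6 kept adipocyte probe sets rose in loaded healing (1.03 percent of all probe sets) and fell with unloading in healing (0.858 percent). Of 9 endothelial ones, 1 fell in unloaded healing against unloaded control (1.05 percent) and against loaded healing (0.858 percent). Of 3 mast cell and lymphocyte ones, 0 passed with limma in any pairwise comparison (0.0763 to 7.46 percent of all probe sets). Promoter windows came from RefSeq (GRCr8).

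Alternatives were quantile normalization, median centring, spike-in scaling, a floor in place of the offset, an offset 4 times as large, no filter or a 60% filter, other variance priors, a replicate block, fits to fewer groups, averaging probe sets by gene, and omitting arrays in turn. Precision is limited by the number of arrays.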

Additional observations from a re-analysis of the deposited data

Results flagged for a closer look

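The difference of Slc25a4 between healing and control ligaments was not the same in unloaded and loaded rats, by a test of the difference itself. The unloaded controls had no sham operation, so the 2 healing comparisons do not have like controls. It was 2.13 log2 in unloaded rats and -0.08 in loaded rats, and the interaction was 2.21 ± 0.44 SE (limma adjusted p = 0.0144). Among all probe sets 4.84 percent were called in the interaction. For Slc25a4 it did not pass with spike-in scaling (adjusted p = 0.156), with a prior without trend (0.0590) or when some single arrays were left out. The loaded healing, loaded control and unloaded healing arrays read 1172 to 2001 and the unloaded controls 294.6 and 533.6. No group had 4 arrays, so no array was tested as an outlier within its group.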

How the results depend on the processing

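Against 4 members called in unloaded healing against control, there were 2 without a filter and 2 with a variance prior without trend. Over all probe sets these settings called 360 of 8740 and 347 of 5244, in place of 391 of 5244. Against 2 in unloaded against loaded controls, both lower, there were 7 with quantile normalization, 4 higher and 3 lower. That setting called 592 of all 5244 probe sets there, in place of 357, so the count rose over the whole array as well. A fit of the control groups alone called 1, Slc28a2, which was higher, and neither Slc25a3 nor Slc25a4 (295 over all probe sets). Against 1 in the interaction, there were 0 with limma under spike-in scaling and 0 with a prior without trend. All probe sets called then numbered 231 and 221, in place of 254. Against 2 in the test among groups, there were 6 with quantile normalization and 0 in a fit of the 3 groups other than unloaded control. All probe sets called then numbered 655 and 103, in place of 455. Unloaded against loaded healing had 1, Slc25a17, with spike-in scaling (137 over all probe sets, in place of 85) and 0 otherwise. Leaving out 1 array at a time gave 2 to 5, 0 to 3, 0 to 2 and 2 to 5 in the first 4 of these, and 0 to 0 in the comparisons without unloaded controls. No member's called difference changed sign under any alternative run. The same replicate numbers deviated together only weakly between groups (correlations 0.000779 to 0.204), which does not settle whether the numbers pair the arrays. Replicate 1 had the lower median signal of the 2 arrays in every group. With the replicate block the member counts were 4, 2, 1 and 2 as before. Over all probe sets the block called 443 in unloaded healing against control, in place of 391. The fit with only the compared groups was not run for the interaction, which uses all 4, and the fit without unloaded controls could not be made for comparisons that use them.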
